A study of Mus musculus with 6 samples.

Results

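Chemoattractant receptors are the surface proteins by which leukocytes sense and follow gradients of chemokines, formylated peptides, lipid mediators and chemerin. Most of them couple to inhibitory G proteins, which free the βγ subunits that activate phosphoinositide 3-kinase γ, phospholipase Cβ and Rac, and they are silenced by receptor kinases, arrestins and RGS proteins. In the lung such receptors guide monocytes out of the blood, hold patrolling cells along the vessels and direct dendritic cells to lymph nodes. The 9 receptors described here are Cx3cr1, Ccr1, Ccr7, Cxcr4, Ccrl2, Cmklr1, Fpr1, Fpr2 and Ltb4r1. They were chosen by name from the 21965 genes of the count table, leaving out Ccr2, and all 9 passed the filter on low counts that left 12305 genes for testing.

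PolyA RNA was sequenced from lung interstitial macrophages, taken by antibody staining from the digested lungs of C57Bl/6 mice aged 6 to 8 weeks. Of the 6 libraries, 3 came from mice given phosphate-buffered saline (PBS) and 3 from mice given 1 mg of the β-glucan preparation WGP, a glucose polymer of yeast cell walls, both by the intraperitoneal route. The treatment is given as lasting 6 days with lungs taken on day 7. The titles of all 6 libraries also hold the word Control, whose meaning is not given there. The gate, the sex and the number of mice in a library are not stated in the labels. The p-values therefore measure the spread between these libraries, which may in part be technical. The comparison asks how receptor transcripts in the cells taken differed after a compound that the study used to train lung macrophages.

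The libraries held 18254678 to 20346517 counts. Of the genes tested, 1874 (15.2%) rose and 1935 (15.7%) fell after WGP, shares to be read beside each count of markers called. PBS replicate 3 stood apart in its Y-linked transcripts, which summed to 10.6 CPM (counts scaled to a common library size) against 114 and 180 CPM in the other PBS libraries and 207 to 229 CPM after WGP. WGP replicate 1 stood apart from WGP replicates 2 and 3 on the second principal component, which held 13.8% of the variance. All 15 interstitial macrophage markers were detected. Of these 3 rose (Fcgr1, Itgam and Csf1r), 3 fell (Mertk, Mrc1 and Ms4a7) and 9 did not pass, with a median log2 fold change of -0.49. The number lower was 7 by DESeq2 or limma-voom, 8 without WGP replicate 1 and 3 without PBS replicate 1, 2 or 3. Cd68 stood at 799 ± 28.1 and 760 ± 8.37 CPM and Csf1r at 2357 ± 199 and 2965 ± 23.2 CPM after PBS and WGP (mean ± SD, n = 3). Of the receptors commonly used to define these cells, Mertk fell from 166 ± 36.9 to 20.6 ± 3.72 CPM and Fcgr1, which encodes CD64, rose from 100.4 ± 14.4 to 206 ± 19.4 CPM. Classical monocyte markers summed to 2541 to 3136 CPM after PBS and to 6717 to 8170 CPM after WGP. In such bulk libraries fewer cells of a type and less RNA per cell cannot be told apart.

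Among the 9 receptors, 3 rose after WGP, 1 fell and 5 did not pass the test. Cx3cr1, Ltb4r1 and Cmklr1 were the receptors that rose, by 1.78-fold, 1.60-fold and 1.17-fold, and Fpr1 was the receptor that fell, by 4.24-fold. Of all genes tested, 31.0% were called, 15.2% as higher and 15.7% as lower, and a list of 9 is too short to be set apart from that background. The median log2 fold change was -0.10 over the 9 receptors and -0.02 over all genes tested. The WGP libraries lay wholly above the PBS libraries for Cx3cr1, Ltb4r1 and Cmklr1 and wholly below them for Fpr1 and Ccr7, which is 5 of 9 receptors. Of all genes tested, 48.1% showed no overlap, 23.2% with WGP above and 24.9% with WGP below. Levels are TMM-normalised CPM, log2 fold changes (± SE) compare WGP with PBS, and each adjusted p comes from the quasi-likelihood F test of edgeR after Benjamini-Hochberg correction across the 12305 genes, with 0.05 as the threshold.

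**Figure D1:**
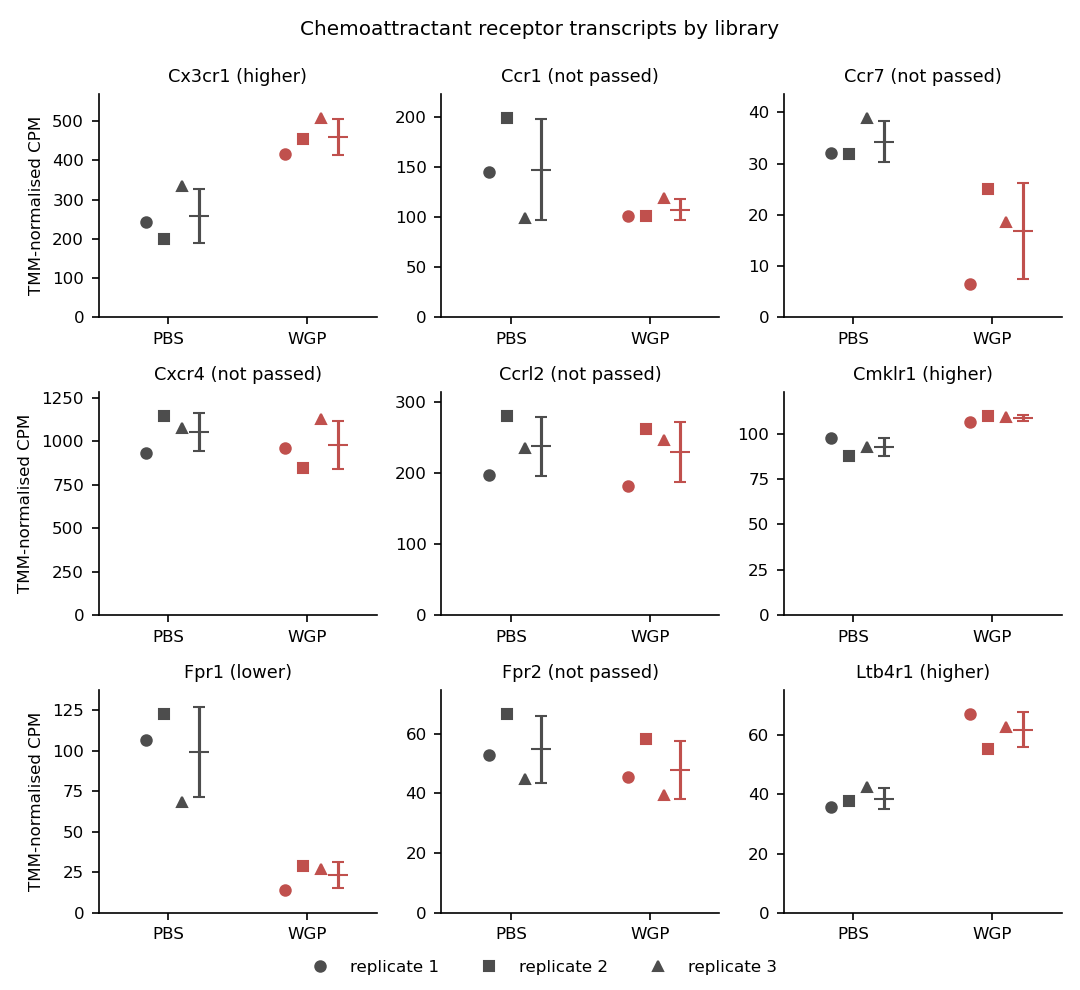
TMM-normalised CPM (vertical axes, from 0) of the 9 receptors in the 3 PBS (grey) and 3 WGP (red) libraries, with a marker shape for each replicate number and the mean ± SD beside the points. Fpr1 lay between 68.6 and 123 CPM after PBS and between 14.3 and 28.7 CPM after WGP, whereas the groups overlapped for Ccr1, Cxcr4, Ccrl2 and Fpr2.

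Cxcr4, the receptor for Cxcl12, which holds cells in bone marrow and tissue niches, was by far the most abundant per length. Its level was 582 ± 61.0 CPM per kb of exon after PBS and 542 ± 77.7 CPM per kb after WGP (n = 3), the 99.5th percentile of tested genes. The 6 libraries gave 931, 1146 and 1080 CPM after PBS and 963, 848 and 1128 CPM after WGP. The groups overlapped throughout, and the log2 fold change of -0.10 ± 0.11 had a 95% interval from -0.36 to 0.15 (adjusted p = 0.53). Cxcr4 (ENSMUSG00000045382) lies on the minus strand of GRCm38 chromosome 1, from 128588199 to 128592293.

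Cx3cr1, the receptor for the membrane-bound chemokine fractalkine, marks patrolling monocytes and many tissue macrophages. It had 241, 200 and 335 CPM in PBS replicates 1, 2 and 3 and 417, 456 and 507 CPM in WGP replicates 1, 2 and 3. Every WGP library was above every PBS library, with PBS replicate 3 the nearest. The log2 fold change was 0.83 ± 0.20 (adjusted p = 0.021). The adjusted p rose past the threshold when PBS replicate 1 (0.088), WGP replicate 2 (0.055) or WGP replicate 3 (0.061) was left out and when no low-count filter was applied (0.054), while the fold change under 17 alternatives ran from 0.67 to 1.20. The gene (ENSMUSG00000052336) spans 119901616 to 120069879 on chromosome 9, on the minus strand, and 78 of its exonic bases overlap the antisense transcript Gm33858.

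Cell markers moved beside Cx3cr1 in different ways. All 10 classical monocyte markers rose, with a median log2 fold change of 1.45. Of the 9 nonclassical monocyte markers, which belong to cells known for high Cx3cr1, 2 rose and 0 fell by edgeR. Over all genes tested 15.2% rose and 15.7% fell. At an unadjusted p under 0.05, 1 of these markers was lower. Their median was 0.06, and their summed level was 9372 to 11179 CPM after PBS and 8919 to 11130 CPM after WGP. Ace, a nonclassical marker that did not pass, had 2237 ± 196 and 1806 ± 259 CPM (adjusted p = 0.051). For that list DESeq2 called 3 markers higher and 1 lower, and limma-voom 2 higher and 1 lower. Without PBS replicate 3, or with adjustment for the Y-linked level, 4 were higher and 0 lower. The NK cell list, another Cx3cr1-expressing population, had 0 of 7 genes called by edgeR, DESeq2 or limma-voom and 1 at an unadjusted p under 0.05. Its sums were 28.3 to 41.7 CPM after PBS and 17.7 to 51.4 CPM after WGP. Without WGP replicate 1, 2 of the 7 were called higher and 0 lower (median log2 fold change 0.486). The part of these cells in the Cx3cr1 result was not tested.

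The rise of Cx3cr1 was smaller than that of Ccr2, the receptor that brings classical monocytes out of bone marrow, which stood at 248 ± 48.3 and 1031 ± 46.3 CPM (log2 fold change 2.06 ± 0.13). Per length, the ratio of Cx3cr1 to Ccr2 was 1.60, 1.402 and 1.66 in PBS replicates 1 to 3 and 0.589, 0.649 and 0.779 in WGP replicates 1 to 3. Per length, Cx3cr1 was thus the more abundant transcript in each PBS library and Ccr2 in each WGP library. The order after PBS rests on the annotated exonic lengths. Without them Cx3cr1 had 241, 200 and 335 CPM and Ccr2 226, 214 and 303 CPM in PBS replicates 1 to 3. A ratio within a library does not depend on the scaling between libraries. Its log2 differed by -1.21 between the groups (two-sided exact permutation test, p = 0.1, the smallest that 3 against 3 can give, and 0.1 after Benjamini-Hochberg adjustment over the 4 ratios computed, which were chosen after the values were seen). The ratio of Cxcr4 to Ccr2, another of the 4, was 13.3 to 20.03 after PBS and 3.01 to 4.31 after WGP (exact p = 0.1).

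Ccr1 binds Ccl3, Ccl5, Ccl6, Ccl7 and Ccl9 and is carried by monocytes and neutrophils. Its level was 145, 199 and 98.5 CPM after PBS and 101, 101 and 119 CPM after WGP. The PBS libraries differed among themselves by more than the group means did, with a coefficient of variation of 34.0% after PBS and 9.68% after WGP. The log2 fold change of -0.46 ± 0.27 did not pass (95% interval -1.13 to 0.22, adjusted p = 0.26). Without PBS replicate 3, the lowest library, it was -0.68 with adjusted p = 0.0091, without PBS replicates 1 and 3 it was -0.89 (0.0012) and adjusted for the Y-linked level it was -0.82 (0.0012), while without PBS replicate 2 it was -0.19 (0.46).

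Ccr1 (ENSMUSG00000025804, chromosome 9, 123962124 to 123968692, minus strand) lies in a row of chemokine receptor genes that also holds Ccr9, Cxcr6, Xcr1, Ccr1l1, Ccr3 and Ccr2. Its nearest neighbour, Ccr1l1, 8.55 kb away, had at most 12 counts in a library and was not tested. Within the row Ccr2 rose and Ccr9 fell at low level (6.44 ± 4.08 and 0.860 ± 0.674 CPM, log2 fold change -2.89 ± 0.74, adjusted p = 0.020). The call of Ccr9 was lost under 7 of 17 alternatives, and its fold change without PBS replicates 1 and 3 was -1.03.

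Ccr7, which takes dendritic cells and naive lymphocytes to lymph nodes along Ccl19 and Ccl21, was the least abundant per length, at 17.3 ± 2.001 and 8.47 ± 4.74 CPM per kb. The libraries had 32.2, 31.9 and 38.9 CPM after PBS and 6.57, 25.0 and 18.7 CPM after WGP. All WGP libraries were below all PBS libraries, but WGP replicate 1 was far below the other two, and the log2 fold change of -1.03 ± 0.48 did not pass (95% interval -2.27 to 0.21, adjusted p = 0.18). Without WGP replicate 1 it was -0.65 with adjusted p = 0.0145, and with limma-voom it was -1.22 with 0.024. Ccr7 (ENSMUSG00000037944) lies at 99144196 to 99155077 of chromosome 11, on the minus strand.

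Dendritic cells and lymphocytes are the cells best known for Ccr7. Of 9 migratory dendritic cell markers 4 fell and none rose, where 15.7% of all genes tested fell and 15.2% rose. Their median log2 fold change was -0.79, with sums of 837 to 993 CPM after PBS and 581 to 686 CPM after WGP. Ccl22 (108 ± 15.8 and 30.2 ± 11.1 CPM) and the calcium channel subunit gene Cacnb3 (10.5 ± 2.22 and 3.48 ± 0.963 CPM) were among those that fell. Of 10 T cell markers 1 fell, Il7r, with sums of 79.0 to 219 and 15.7 to 93.1 CPM, and none of 8 B cell markers passed by edgeR, DESeq2 or limma-voom, with 0 at an unadjusted p under 0.05 and sums of 51.5 to 82.2 and 29.0 to 89.3 CPM. WGP replicate 1 was lowest of the WGP libraries for Ccr7 and for the sums of all 3 lists, and the part of these cells in the Ccr7 values was not tested.

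**Figure D2:**
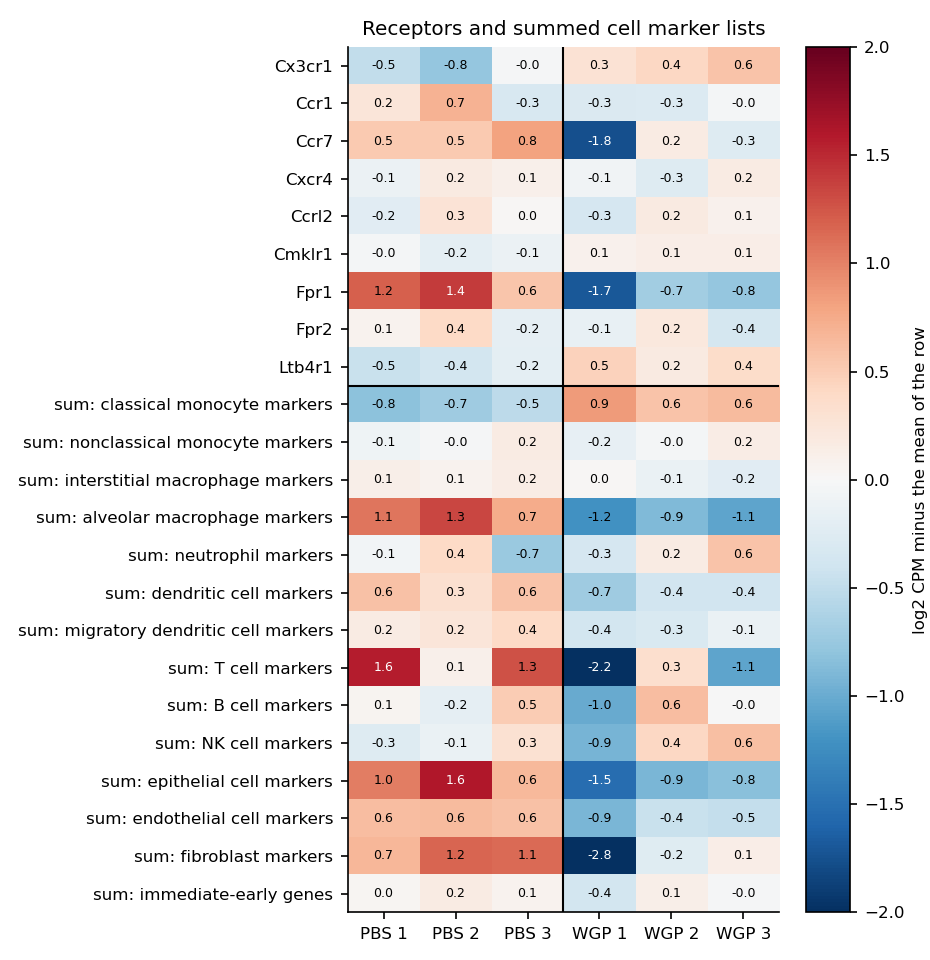
Log2 CPM of the 9 receptors (upper rows) and log2 summed CPM of 14 lists of cell type and cell state markers (lower rows) in each library, as the difference from the row's mean over the 6 libraries, with colours ending at -2 and 2. WGP replicate 1 was the lowest library for Ccr7, Fpr1 and the T cell and fibroblast sums, and PBS replicate 2 was the highest for Fpr1, Ccr1, Fpr2 and the alveolar macrophage and epithelial sums.

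Fpr1 and Fpr2 sense N-formylated peptides of bacteria and mitochondria, and Fpr2 also binds annexin A1, serum amyloid A and cathelicidin. In GRCm38 they are neighbours on chromosome 17 that point away from each other, with 3.883 kb between them. Fpr1 (ENSMUSG00000045551) lies from 17876471 to 17883940 on the minus strand and Fpr2 (ENSMUSG00000052270) from 17887824 to 17893952 on the plus strand. The 250 bases before each RefSeq start (GRCm38.p6) are shown because these neighbours differed in response. Fpr1 is chr17:17883940-17884189, minus strand, and Fpr2 is chr17:17887574-17887823, plus strand, both written 5′ to 3′. Capitals mark a match to GAGGAA, the core that the myeloid factor PU.1 binds, on either strand.
Fpr1: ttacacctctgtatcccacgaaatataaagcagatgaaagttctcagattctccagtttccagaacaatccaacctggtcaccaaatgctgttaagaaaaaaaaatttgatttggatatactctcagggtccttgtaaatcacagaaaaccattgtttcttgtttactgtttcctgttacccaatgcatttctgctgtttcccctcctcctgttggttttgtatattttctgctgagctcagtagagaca
Fpr2: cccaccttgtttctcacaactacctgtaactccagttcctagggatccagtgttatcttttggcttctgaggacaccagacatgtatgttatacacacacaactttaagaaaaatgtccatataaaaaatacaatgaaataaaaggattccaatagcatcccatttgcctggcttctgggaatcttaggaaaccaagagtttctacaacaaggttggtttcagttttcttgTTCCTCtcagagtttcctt

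Fpr1 had 107, 123 and 68.6 CPM in PBS replicates 1, 2 and 3 and 14.3, 28.7 and 27.3 CPM in WGP replicates 1, 2 and 3. Every PBS library was above every WGP library, and the log2 fold change was -2.08 ± 0.36 (adjusted p = 0.012). The range over 17 alternatives was -2.41 to -1.83, and the call was lost in 1 of them, without PBS replicates 1 and 3 (adjusted p = 0.055). Fpr2 had 52.8, 66.6 and 44.7 CPM after PBS and 45.5, 58.4 and 39.3 CPM after WGP. Its groups overlapped, and the log2 fold change of -0.20 ± 0.18 did not pass (95% interval -0.62 to 0.23, adjusted p = 0.46).

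Per length, the ratio of Fpr1 to Fpr2 was 1.98, 1.80 and 1.502 after PBS and 0.308, 0.482 and 0.679 after WGP. Fpr1 was the more abundant in every PBS library and Fpr2 in every WGP library. The log2 ratio fell by 1.91 (two-sided exact permutation test, p = 0.1, the smallest possible, and 0.1 when adjusted over the 4 ratios). Reads of these genes can be confused with those of close copies to different extents. Of the 50-base words in Fpr2 transcripts, 31.5% also occur in transcripts of other genes, namely Gm5966, Fpr3 and Fpr1, and 48 exonic bases of Fpr2 overlap Fpr3 on the same strand, whereas 1 of 1275 such words of Fpr1 does. Fpr3 had 1 count in the 6 libraries and Fpr-rs3, Fpr-rs4, Fpr-rs6 and Fpr-rs7 had 0, with an upper limit of 3 counts in each library, so the value of Fpr2 is less certain than that of Fpr1.

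Neutrophils are the classical carriers of Fpr1. Of 13 neutrophil markers 2 rose by edgeR (Cd177 and Mmp8) and 0 fell, where 15.2% of all genes tested rose and 15.7% fell. At an unadjusted p under 0.05, 1 of these markers was lower. Their median log2 fold change was 0.06, with sums of 1439 to 3161 CPM after PBS and 1901 to 3540 CPM after WGP. The granule protein gene Ngp, which did not pass, had 16.7 ± 9.92 and 2.84 ± 1.88 CPM (log2 fold change -2.55 ± 0.79, adjusted p = 0.067), with WGP wholly below PBS. The number of these markers called lower was 1 with DESeq2, 0 with limma-voom and 2 without PBS replicate 3 or with adjustment for the Y-linked level. The neutrophil receptor Cxcr2 had 136, 167 and 50.7 CPM after PBS and 39.9, 105 and 134 CPM after WGP (log2 fold change -0.34 ± 0.67, adjusted p = 0.75). Alveolar macrophage markers fell with Fpr1, 13 of 14 of them, with a median of -3.33 and sums of 5012 to 7584 CPM after PBS and 1292 to 1622 CPM after WGP, no marker being at 0 in either group. Without PBS replicate 1 or PBS replicate 2 the number that fell was 7, and without WGP replicate 3 it was 8. Endothelial markers fell as well, 8 of 10, with sums of 470 to 485 and 167 to 232 CPM. The libraries stood in the same order for Fpr1 and for the alveolar macrophage and endothelial sums. It was replicates 2, 1 and 3 from high to low after PBS and 2, 3 and 1 after WGP. How many of all genes share that order was not counted, and orders of 3 libraries are easily shared. Epithelial markers also fell, 8 of 11 tested, with sums of 438 to 849 and 97.6 to 156 CPM. The part of any of these cell types in the Fpr1 result was not tested.

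Ltb4r1, the high-affinity receptor for leukotriene B4, a lipid that draws in neutrophils and monocytes, gave the call that held under each of the 17 alternatives. It had 35.6, 37.6 and 42.4 CPM after PBS and 67.2, 55.4 and 62.9 CPM after WGP, so that every WGP library was above every PBS library. The log2 fold change was 0.68 ± 0.11 (adjusted p = 9.1e-04), with 0.58 to 0.78 over the alternatives. Ltb4r1 (ENSMUSG00000046908) lies at 55765962 to 55768494 of chromosome 14, on the plus strand, and starts 0.823 kb after the end of Ltb4r2, the low-affinity receptor gene, which had 0 to 26 counts in a library and did not pass (adjusted p = 0.13). No exon of Ltb4r1 overlaps another gene and none of its 50-base words occurs in another gene's transcripts.

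The 250 bases before the RefSeq start of Ltb4r1 (GRCm38.p6, chr14:55765712-55765961, plus strand, 5′ to 3′) are shown as the counterpart of Fpr1 among the changed receptors, with a match to GAGGAA on the other strand in capitals.
Ltb4r1: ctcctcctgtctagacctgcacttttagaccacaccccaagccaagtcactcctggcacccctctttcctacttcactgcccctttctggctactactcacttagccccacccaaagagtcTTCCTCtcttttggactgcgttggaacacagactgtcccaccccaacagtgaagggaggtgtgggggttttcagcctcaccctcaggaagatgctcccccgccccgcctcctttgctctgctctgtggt

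Such windows were available for 8 of the 9 receptors, all but Ccr7. That of Cx3cr1 lies wholly within an annotated exon, and Ccrl2 has 3 windows, of which 2 hold 139 and 140 exonic bases. GAGGAA on either strand occurred for 4 of them (Ccr1, Cmklr1, Fpr2 and Ltb4r1) and in 23.3% of the 32851 windows of all genes. It was thus present before receptors that rose and before receptors that did not pass. The interferon-stimulated response motif, the NF-κB motif, TTGCNNAA (C/EBP) and TGANTCA (AP-1) occurred on either strand in none of the 8, and in 2.98%, 1.41%, 9.56% and 6.75% of all windows. GC content was 38.4% in the Fpr1 window, 38.8% in that of Fpr2 and 56.8% in that of Ltb4r1. A match describes the letters in the window and not the binding of a factor.

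Cmklr1 and Ccrl2 both bind chemerin, the first as its signalling receptor on macrophages and dendritic cells, the second as a receptor that holds the ligand at the surface without signalling itself. Cmklr1 had 97.8, 87.6 and 92.8 CPM after PBS and 106, 110 and 109 CPM after WGP, the narrowest spread of the 9 receptors, with coefficients of variation of 5.52% and 1.66%. The groups did not overlap, and the log2 fold change of 0.23 ± 0.07 passed (adjusted p = 0.035). This call was lost under 11 of 17 alternatives, among them the omission of any single library (adjusted p = 0.055 to 0.12), upper quartile scaling (0.17, adjusted p = 0.12) and library sizes alone (0.12, adjusted p = 0.24). Library sizes alone also moved the median of all tested genes, to -0.12. Cmklr1 (ENSMUSG00000042190) spans 113612354 to 113650426 on the minus strand of chromosome 5.

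Ccrl2 had 198, 280 and 235 CPM after PBS and 182, 262 and 246 CPM after WGP. The groups overlapped, and the log2 fold change of -0.05 ± 0.17 did not pass (95% interval -0.46 to 0.37, adjusted p = 0.87). The libraries stood in the order of replicates 2, 3 and 1 in each group. Summed immediate-early and handling response genes had the same order (17077 to 18478 CPM after PBS and 12914 to 17995 CPM after WGP). Orders of 3 libraries are easily shared, and how many of all genes have this one was not counted. By edgeR 5 of these 12 genes were lower and 0 higher, against 15.7% lower and 15.2% higher over all genes tested. At an unadjusted p under 0.05, 0 were higher, and DESeq2 called 1 higher. The part of these genes was not tested. Ccrl2 (ENSMUSG00000043953) lies at 111054486 to 111057519 of chromosome 9, on the minus strand.

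**Figure D3:**
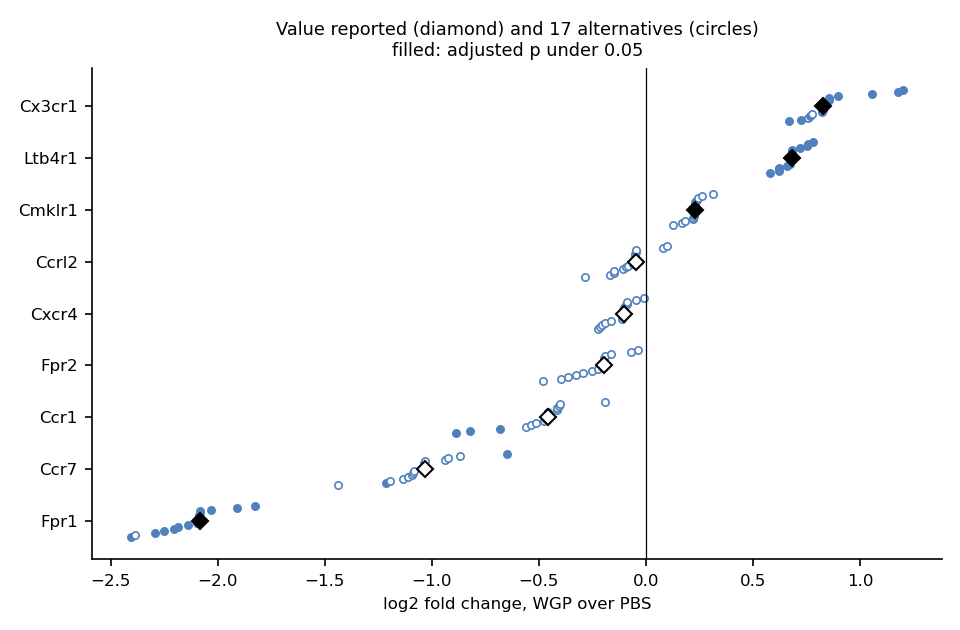
Log2 fold change, WGP over PBS, of each receptor as reported (diamonds) and under 17 alternatives (circles), filled where the adjusted p was under 0.05. Ltb4r1 stayed filled throughout, Fpr1 lost 1 call, Cx3cr1 lost 4 and Cmklr1 lost 11, while Ccr1 gained a call under 3 alternatives and Ccr7 under 2.

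The order of the receptors by level per length changed between the groups. After PBS Cxcr4 stood alone at the top, and Ccrl2 (91.5 ± 15.9 CPM per kb), Fpr1 (75.1 ± 21.1), Cx3cr1 (57.4 ± 15.3), Ccr1 (52.0 ± 17.7) and Fpr2 (42.2 ± 8.56) followed, each overlapping the next in its libraries. Ltb4r1 (27.6 ± 2.499) and Cmklr1 (27.2 ± 1.503) were lower and overlapped each other, and Ccr7 was below all. After WGP Cx3cr1 (102 ± 10.1 CPM per kb) was second to Cxcr4 and overlapped Ccrl2 (88.6 ± 16.2). Ltb4r1 (44.3 ± 4.28), Ccr1 (37.8 ± 3.66), Fpr2 (36.8 ± 7.48) and Cmklr1 (31.9 ± 0.529) formed a second overlapping run, and Fpr1 (17.7 ± 6.00) stood below them, overlapping Ccr7.

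Set beside 33 other chemoattractant receptors, the 9 made up most of the receptor transcripts. Their share of the summed CPM per kb over the 42 genes was 73.4%, 74.1% and 76.7% in PBS replicates 1 to 3 and 67.8%, 67.4% and 69.8% in WGP replicates 1 to 3. Cxcr4 alone held 44.7 ± 2.65% after PBS and 40.6 ± 3.34% after WGP. Cx3cr1 held 4.48 ± 1.43% and 7.67 ± 0.335%, and Fpr1 5.75 ± 1.404% and 1.33 ± 0.434%. The share of Ccr2 was 2.85 ± 0.696% and 11.5 ± 1.34%, the largest difference of any receptor. The total over the 42 genes was 1301 ± 124 and 1330 ± 102 CPM per kb, which differed by less than the spread between libraries.

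**Figure D4:**
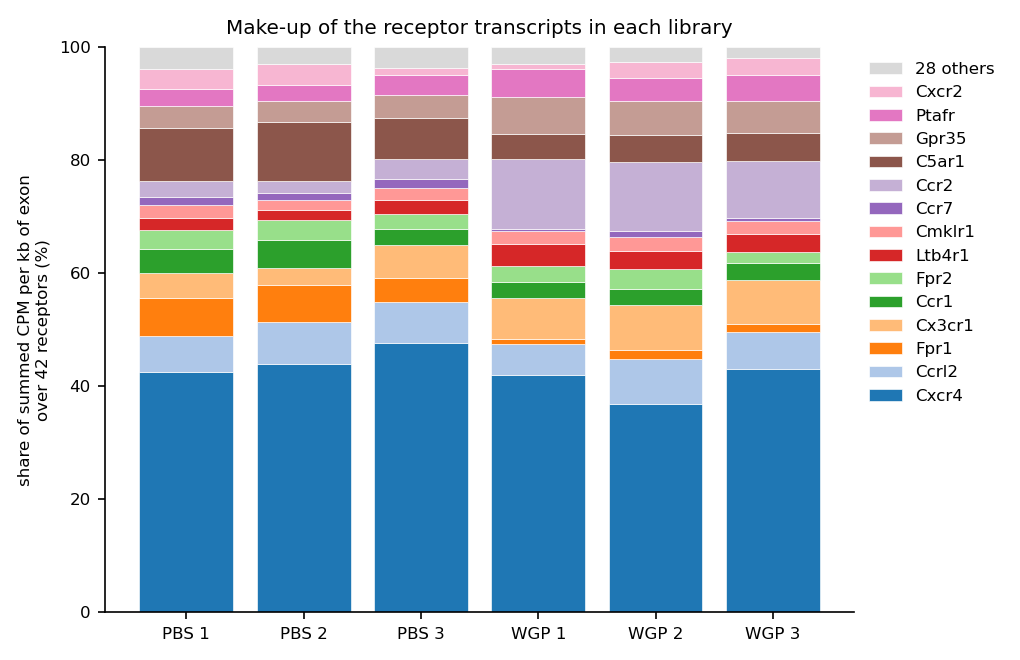
Share of each receptor in the summed CPM per kb of exon over 42 chemoattractant receptors (vertical axis, percent) for each library, with 14 receptors coloured and 28 others in grey. Ccr2 took 2.19 to 3.58% of a PBS library and 9.98 to 12.4% of a WGP library, and Cxcr4 was the largest part of each.

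Of the 33 other receptors 20 were tested, 3 rose, 2 fell and 15 did not pass, with a median log2 fold change of -0.32. The shares over all genes tested were 15.2% higher and 15.7% lower. Besides Ccr2, the receptors that rose were Gpr35 (240 ± 19.7 and 390 ± 13.4 CPM, log2 fold change 0.70 ± 0.08, adjusted p = 1.2e-04) and Ptafr, the receptor for platelet-activating factor (146 ± 16.4 and 218 ± 23.2 CPM, 0.58 ± 0.10, adjusted p = 0.0019). C5ar1, the receptor for the complement fragment C5a, fell from 305 ± 79.3 to 163 ± 21.4 CPM (-0.90 ± 0.20, adjusted p = 0.019), as did Ccr9. Leaving out PBS replicate 1 (adjusted p = 0.057), WGP replicate 1 (0.060) or WGP replicate 2 (0.064) ended the call of C5ar1. In the PBS libraries C5ar1, Fpr1, Fpr2, Ccr1 and Cxcr2 were all highest in replicate 2 and lowest in replicate 3. So were the neutrophil, alveolar macrophage, epithelial and endothelial marker sums. The Y-linked sum had this order too, at 180, 114 and 10.6 CPM in PBS replicates 2, 1 and 3. With 3 libraries in a group an order is easily shared, and its share over all genes was not computed. Ccr1, C5ar1, Cxcr2 and the neutrophil and epithelial sums also shared the order of the WGP libraries, replicates 3, 2 and 1 from high to low, and the part of these cells was not tested. Cx3cr1 and Ccr2 were highest in PBS replicate 3 and lowest in PBS replicate 2.

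**Figure D5:**
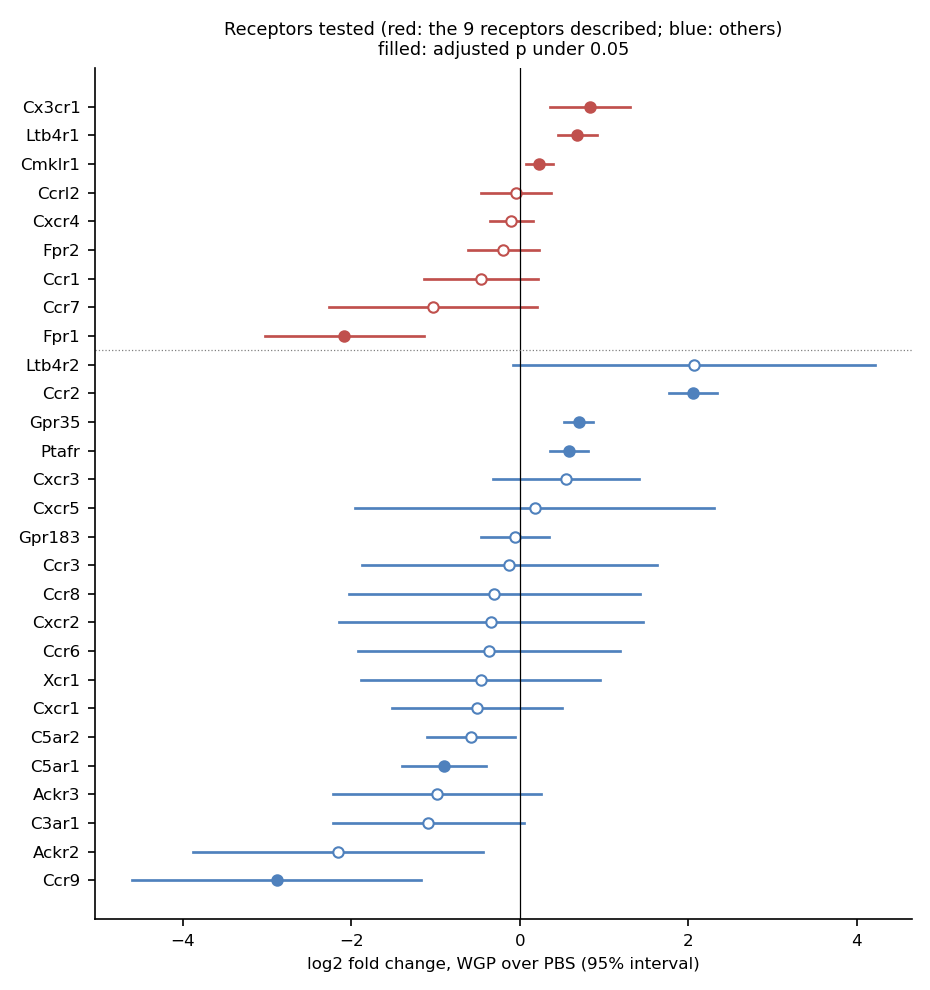
Log2 fold change, WGP over PBS, with its 95% interval for the 9 receptors described (red) and 19 of the 20 other chemoattractant receptors tested (blue), filled where the adjusted p was under 0.05. Fpr1 at -2.08 was the lowest of the 9 and Cx3cr1 at 0.83 the highest, and Ccr2 at 2.06 was the highest call among the others.

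Of 18 genes for ligands and ligand-making enzymes of the 9 receptors 16 were tested, 2 rose, 6 fell and 8 did not pass, where 15.2% of all genes tested rose and 15.7% fell, with a median log2 fold change of -0.32. Cx3cl1, the fractalkine that Cx3cr1 binds, fell from 26.8, 21.6 and 14.7 CPM to 0.954, 3.96 and 3.502 CPM (log2 fold change -2.90 ± 0.49, adjusted p = 0.0054). It thus moved opposite to its receptor, beside epithelial (8 of 11 lower) and endothelial (8 of 10 lower) markers, cells that make fractalkine, whose part was not tested. Cxcl12, the ligand of Cxcr4 made chiefly by stromal cells, was low and fell from 6.93 ± 0.404 to 2.90 ± 0.855 CPM (-1.25 ± 0.30, adjusted p = 0.0097). That call was lost without PBS replicates 1 and 3 (adjusted p = 0.15), and fibroblast markers summed to 99.7 to 141 CPM after PBS and 8.76 to 68.6 CPM after WGP, with 3 of 8 tested lower.

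Ligands of Ccr1 moved in different directions. Ccl3 (313 ± 75.6 and 139 ± 10.7 CPM, log2 fold change -1.17 ± 0.18, adjusted p = 0.0031) and Ccl7 (14.5 ± 1.93 and 2.55 ± 0.701 CPM, -2.51 ± 0.25) fell, as did the abundant Ccl6 (1364 ± 194 and 956 ± 70.9 CPM, -0.51 ± 0.10). Ccl9 rose from 434 ± 15.9 to 563 ± 73.2 CPM (0.38 ± 0.09, adjusted p = 0.012), a call lost without PBS replicate 1 (0.059) or PBS replicates 1 and 3 (0.13). Ccl5 did not pass. Nor did Ccl8, which is on the ligand list but not among the Ccr1 ligands named above. The Ccr7 ligands Ccl19 and Ccl21a had 0 counts in all 6 libraries, with an upper limit of 3 counts in each. Sequence shared with other genes was searched for the receptors only, so reads lost to copies of these ligands were not examined.

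The genes that make leukotriene B4 did not move with its receptor as a group. Alox5, the lipoxygenase that starts the pathway, fell from 134, 151 and 108 CPM to 60.2, 74.7 and 69.4 CPM (log2 fold change -0.95 ± 0.13, adjusted p = 5.8e-04), whereas Alox5ap, the membrane protein that hands it arachidonic acid, rose from 561, 636 and 599 CPM to 934, 837 and 852 CPM (0.55 ± 0.08, adjusted p = 4.6e-04). Lta4h, the hydrolase that completes leukotriene B4, had a log2 fold change of -0.22 ± 0.08 and did not pass (adjusted p = 0.062). The ratio of Alox5ap to Alox5 per length was 12.1, 12.2 and 15.98 after PBS and 44.9, 32.4 and 35.5 after WGP, with no overlap between the groups (two-sided exact permutation test, p = 0.1, the smallest possible, and 0.1 when adjusted over the 4 ratios). Chemerin, encoded by Rarres2, had 0 to 2.14 CPM and did not pass, nor did the Fpr2 agonists Anxa1 (269 ± 17.8 and 322 ± 42.4 CPM, adjusted p = 0.068), Camp and Saa3.

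Of 39 genes of signalling and desensitisation below these receptors, 38 were tested, 15 rose, 4 fell and 19 did not pass, with a median log2 fold change of 0.18. Over all genes tested 15.2% rose and 15.7% fell, with a median of -0.02. The 4 with the smallest p-values among those that rose were the receptor kinase Grk6 (159 ± 8.30 and 309 ± 21.1 CPM, log2 fold change 0.96 ± 0.08), the phagocyte GTPase Rac2 (454 ± 35.7 and 764 ± 18.2 CPM, 0.75 ± 0.08), the phosphoinositide 3-kinase subunit Pik3cd (392 ± 31.7 and 685 ± 71.2 CPM, 0.80 ± 0.09) and the tyrosine kinase Ptk2b (392 ± 33.5 and 665 ± 72.0 CPM, 0.76 ± 0.09). Those that fell were Rgs1, which shortens G protein signals (261 ± 21.4 and 134 ± 17.4 CPM, -0.96 ± 0.10), the G protein subunit Gna15 (39.3 ± 2.69 and 17.1 ± 2.69 CPM, -1.20 ± 0.14), Arrb2 (-0.26 ± 0.07) and Pik3r5 (-0.22 ± 0.07). The arrestins thus moved in opposite directions, since Arrb1 rose from 212 ± 12.4 to 305 ± 27.8 CPM (0.52 ± 0.08).

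These signalling counts depended on the scaling and on the libraries kept. With library sizes alone 10 rose and 9 fell, and with upper quartile scaling 10 rose and 7 fell. The numbers were 9 and 2 without PBS replicate 1 and 12 and 2 without PBS replicate 2. They were 11 and 3 without WGP replicate 3 and 15 and 5 without PBS replicate 3. The calls of Arrb2 and Pik3r5 were among those lost without PBS replicate 1 (adjusted p = 0.0607 and 0.103), while Grk6, Rac2, Pik3cd, Ptk2b, Arrb1, Rgs1 and Gna15 were called under all 17 alternatives. The main inhibitory subunit gene, Gnai2, rose from 1184 ± 21.7 to 1397 ± 18.9 CPM (0.24 ± 0.06, adjusted p = 0.015), a call that ended with upper quartile scaling (0.0504), library sizes alone (0.0995), without PBS replicate 1 (0.0652) and without PBS replicates 1 and 3 (0.117).

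The genes most like each receptor over the 6 libraries were found by Pearson's r of log2 CPM among 9337 other genes with a mean of at least 5 CPM, as a description in which the difference between the groups counts as part of the likeness. For Ltb4r1 they were Rassf4 (r = 0.999) and Mbtd1 (0.998), for Fpr1 Camk2n1 (0.998) and Hmces (0.998), and for Cx3cr1 Nfkb1 (0.997) and Otulinl (0.997). Cmklr1 was most like Knop1 (0.996) and Srebf1 (0.993), Cxcr4 most like Hip1 (0.996) and Galnt1 (0.985), and Ccr1 most like Rab1a (0.989) and Lsr (0.986). For Ccr7 they were Fam199x (0.989) and Clu (0.988), for Fpr2 Mtif3 (0.984) and Irgq (0.984), and for Ccrl2 Zfp831 (0.980) and R3hcc1l (0.978). With 6 libraries high values are common: r was over 0.9 for 1378 genes with Ltb4r1, 877 with Fpr1 and 952 with Cx3cr1, but for 24 with Ccrl2 and 27 with Cxcr4, whose groups overlap.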

How the data were processed

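The deposited table holds raw counts per gene, whole numbers with a different total in each library, made by the authors. HTSeq 0.10.0, FastQC 0.10.1 and the builds GRCm38 and mm10 are named per the submitters' processing notes, while aligner, annotation and strand setting are not given there. GENCODE M21 (GRCm38) matched 21939 of 21965 identifiers and gave symbols, coordinates and exonic lengths. Promoter windows are from RefSeq (GRCm38.p6). The main test used R 4.3.3 with edgeR 4.0.16 (TMM scaling, filterByExpr, robust estimateDisp and glmQLFit, two-sided quasi-likelihood F test, Benjamini-Hochberg over 12305 genes, threshold 0.05), and the SE is the log2 fold change over the square root of F. The test was also run on counts simulated from its own fitted dispersions, which cannot show how it behaves where a library stands apart.

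Named were the 9 receptors, Ccr2, up to 4 called genes per direction of each pathway list by p, called markers of cell lists, and the 2 genes most like each receptor among those with a mean of at least 5 CPM (log2 CPM, prior count 2), passing over predicted models and pseudogenes. Cd68, Ace, Ngp, Arrb1, Gnai2, Cxcr2, Ccr1l1, Ltb4r2, Fpr3, the Fpr-rs genes and ligands that did not pass were named after their values were seen. So were Cx3cl1 and Cxcl12, which were called but are not among the 4 lower ligand genes with the smallest p. A gene named by the rule is not reported here. The members and lists were chosen with earlier results of these data known. Alternatives were other scalings, filters, DESeq2 1.42.0, limma-voom (limma 3.58.1), no robust estimation, omitted libraries, a replicate block and a Y-linked covariate. Pairs of replicates gave 14.1 to 26.2 for chi-square over its degrees of freedom, so each was counted as a separate library.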

Additional observations from a re-analysis of the deposited data

How the results depend on the processing

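Of the 17 alternatives, none turned the direction of a called receptor, while Ccrl2, not called in any, ran from -0.28 to 0.10. The numbers of receptors higher and lower, 3 and 1 as reported, were 3 and 2 with limma-voom (Ccr7 added) and 2 and 2 after adjusting for the Y-linked covariate (Ccr1 added, Cmklr1 lost). Leaving out 1 library gave 1 to 2 receptors higher (1 when PBS replicate 1, or WGP replicate 2 or 3, was omitted) and 1 to 2 lower (2 without PBS replicate 3 or WGP replicate 1). Over all genes, 1874 higher and 1935 lower as reported, library sizes alone gave 1236 higher and moved the share of higher among changed genes from 49.2% to 33.4%, against 40.0% with upper quartile scaling. Without PBS replicates 1 and 3 the numbers were 993 higher and 827 lower, with fewer libraries. Leaving out 1 library gave 1202 to 1753 higher and 1289 to 1964 lower (the lowest without PBS replicate 1). The cause of these shifts was not tested. Same-numbered libraries did not deviate together (correlations across genes of -0.063, -0.081 and -0.046), so the numbers were not taken as pairs. With the replicate block 2 receptors were higher and 1 lower, the call of Cmklr1 being lost (0.23, adjusted p = 0.072), as were those of C5ar1, Ccr9 and Arrb2, and over all genes 1584 were higher and 1601 lower. Depth did not limit the receptors, whose lowest count was 117 (Ccr7 in WGP replicate 1), whereas receptors of a few counts, such as Ccr4 and Ccr10, were not tested.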
